A study of Mus musculus with 4 samples.

Results

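The Dlk1 and Meg3 domain is a cluster of imprinted genes on mouse chromosome 12, and the CTCF sites described here are those in and around it in adult cerebral cortex. The members were 6 genes, Dlk1, Meg3, Rtl1, Rian, Mirg and Dio3, of 32093 protein-coding and lncRNA genes in the annotation. With them went every peak summit from 50 kb upstream of Dlk1 to 50 kb downstream of Dio3 (mm10, chromosome 12, 109402823 to 110331097, 928.3 kb). That region held 12 of the 44672 summits in the list supported by both pools of mice, called the conservative list, and 16 of the 50827 in the list made from pooled reads, called the optimal list. It held 32 of 82131 summits in the list of pool I and 16 of 52658 in that of pool J. The ranked lists, which also hold peaks below the threshold, gave 50 summits for both pools, 54 for the pooled reads, 69 for pool I and 33 for pool J.

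Binding of CTCF, a zinc finger protein found at insulators and chromatin loop anchors, had been mapped by ChIP-seq with a CTCF antibody in frozen left cerebral cortex of female B6CASTF1/J mice aged 2 months. Pool I and pool J each combined 4 cortex biosamples, and each gave 2 libraries that were merged before peaks were listed. There was 1 condition, the tissue was bulk cortex, and the alleles of the hybrid are not separated in the lists. Each pool therefore has 1 value per peak, its spread within a pool cannot be given and no test was made. Read depth is unknown. Whether a weak peak stems from fewer cells, from 1 allele or from weaker binding in all cells cannot be told apart, and peak lists offer no marker genes with which to check the tissue. Counts and medians are set beside those of all peaks or genes instead.

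Dlk1 encodes a transmembrane protein related to the Notch ligands that takes part in neurogenesis and in fat cell differentiation. Rtl1 is a gene derived from a retrotransposon, and Dio3 encodes the deiodinase that inactivates thyroid hormone. All of these are transcribed preferentially from the paternal chromosome. Meg3, Rian and Mirg are noncoding RNA genes transcribed from the maternal chromosome, of which Rian is the host of small nucleolar RNAs and Mirg of many miRNAs. The imprint is set by a differentially methylated region between Dlk1 and Meg3, and a second methylated region covers the Meg3 promoter and the start of the gene. At several imprinted loci CTCF binds the unmethylated allele, since methylated CpG in its motif can block binding.

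The 12 conservative summits are numbered C1 to C12 along the chromosome. The matched sequences of 6 of them are shown because they are the 6 strongest of the 9 sites with a motif match. They lie ahead of Dlk1 (C2), in Meg3 (C4 and C5), past the end of Mirg (C8) and further into the long interval before Dio3 (C11 and C12). The sites in Rian (C6 and C7) are not among them. Each run is 80 bases of the GRCm38.p6 reference, which is C57BL/6J sequence, written 5′ to 3′ in the direction of the motif, with the 20 matched bases in capitals. C2 covers chr12:109437874-109437953, C4 covers chr12:109542137-109542216 and C12 covers chr12:110031474-110031553, all on the plus strand. C5 covers chr12:109543005-109543084, C8 covers chr12:109750139-109750218 and C11 covers chr12:109958875-109958954, all on the minus strand.
C2: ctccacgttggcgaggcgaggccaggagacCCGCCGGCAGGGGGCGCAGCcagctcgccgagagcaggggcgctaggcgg
C4: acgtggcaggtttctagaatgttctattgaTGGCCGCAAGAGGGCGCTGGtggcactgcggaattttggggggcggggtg
C5: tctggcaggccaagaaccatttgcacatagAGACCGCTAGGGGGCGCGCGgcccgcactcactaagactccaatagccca
C8: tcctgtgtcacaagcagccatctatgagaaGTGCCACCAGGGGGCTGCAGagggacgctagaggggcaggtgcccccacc
C11: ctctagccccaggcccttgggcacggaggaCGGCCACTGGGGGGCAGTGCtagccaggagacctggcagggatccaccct
C12: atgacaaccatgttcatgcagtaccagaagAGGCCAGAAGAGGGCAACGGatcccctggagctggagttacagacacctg

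The strongest site of the domain lay 14.9 kb upstream of Dlk1, and the next strongest lay in the first intron of Meg3. Site C2 (chromosome 12, 109437716 to 109438104) was stronger than 90.0% of conservative peaks. C5 (109542900 to 109543206) was stronger than 65.2% and C11 (109958785 to 109959066) than 53.4%. The other 9 sites lay below the middle of the list, down to C7 at the 2.60 percentile. The percentile of a peak is the share of its list with a lower signal value, the peak caller's own measure, whose unit was not stated. The lists differ in length, so percentiles of a site in different lists do not compare its signal between pools. The median over the 12 sites was the 29.3 percentile (95% interval from order statistics 7.72 to 53.4), against 50 by construction for the whole list. The interval takes in 50. Over the region's summits the median was 23.5 in the optimal list, 39.1 in pool I and 28.9 in pool J. In the ranked lists it was 53.7 for both pools, 59.9 for the pooled reads, 49.6 for pool I and 46.4 for pool J. Of the 12, 11 had the highest score of 1000, a scaled irreproducible discovery rate (IDR), and C7 had 855, which is an IDR of 0.00873. The score of 1000 is a ceiling, reached also by C9 and C10 at the 5.76 and 7.72 percentiles. The share of all conservative peaks at that ceiling is not given, so 11 of 12 is a description only. Peaks of the thresholded lists had scores of at least 540, an IDR of 0.05.

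**Figure D1:**
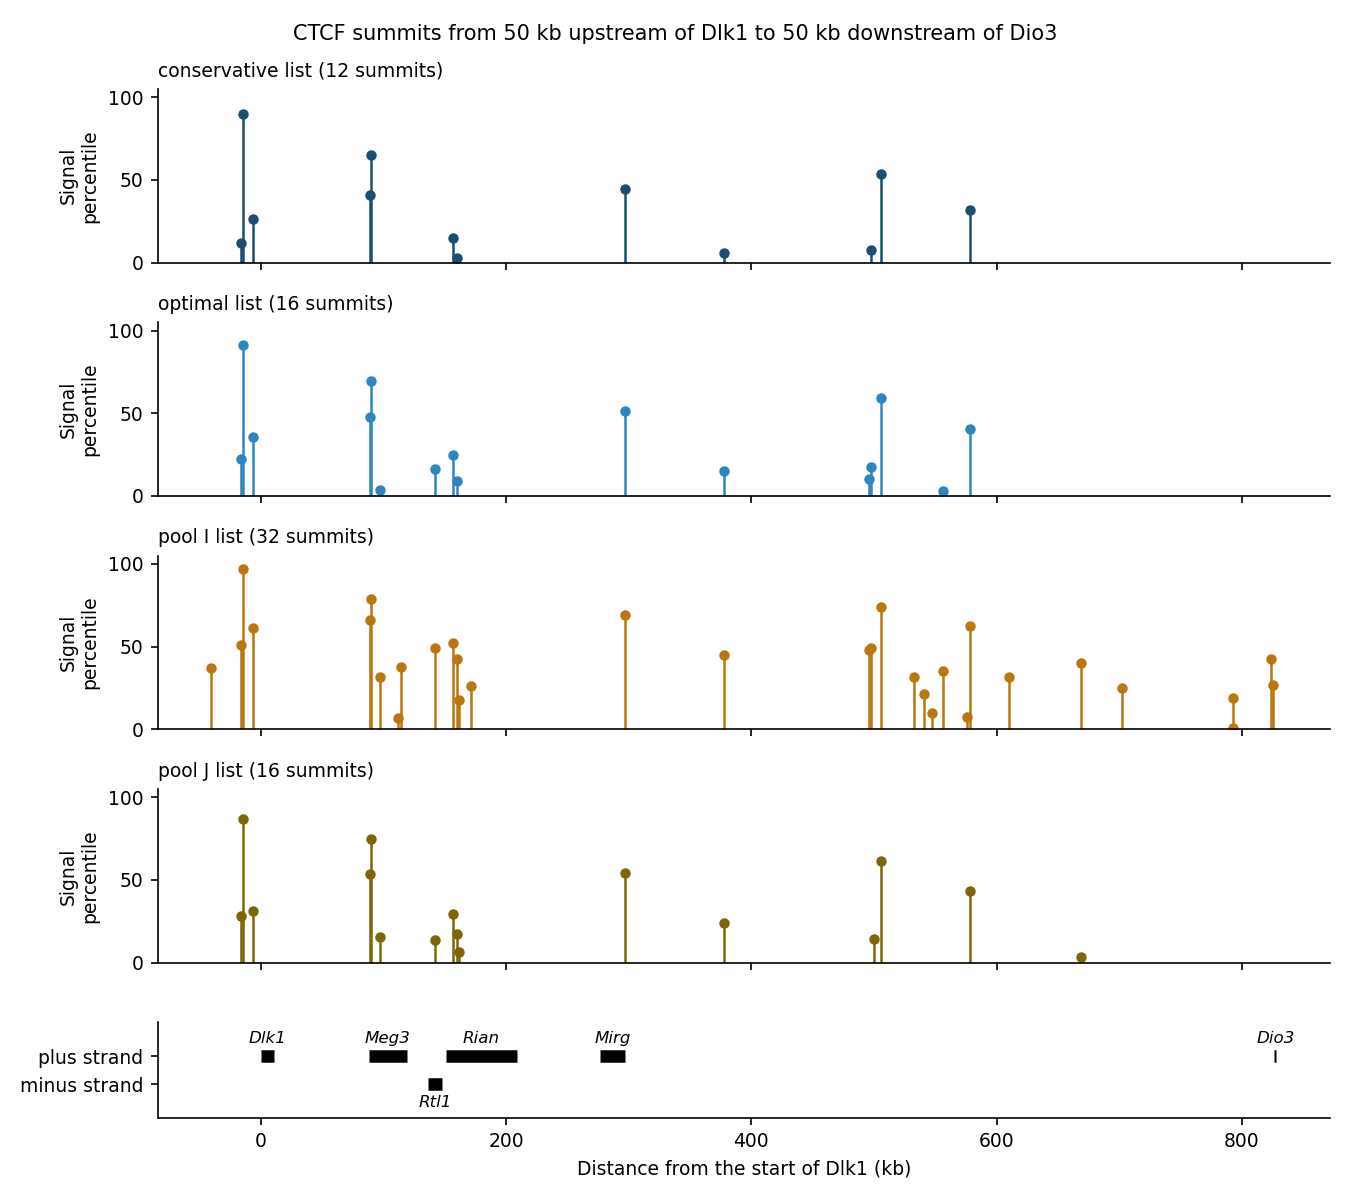
Summits of the conservative, optimal, pool I and pool J lists along the domain, as distance in kb from the start of Dlk1 (x axis), with the signal percentile of each summit within its own list as the height of its line (y axis) and the 6 genes below by strand. The lists share groups of summits ahead of Dlk1, in Meg3 and in Rian, while beyond C12, at 578.7 kb, the conservative list has none and the summits near Dio3 are in the pool I list alone.

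Of the 6 genes, 4 had a conservative summit in the gene or 10 kb upstream, namely Dlk1, Meg3, Rtl1 and Rian. By class these were 2 of the 3 protein-coding members, where 61.3% of all protein-coding genes had such a summit, and 2 of the 3 lncRNA members, where 39.4% of all lncRNA genes had one. None of the 6 had a summit within 1000 bp of an annotated transcription start site (TSS), against 20.8% of protein-coding and 10.6% of lncRNA genes. With 3 genes in a class, counts of this size do not show a difference from those shares.

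Ahead of Dlk1 there were 3 sites, the farthest 16453 bp from the nearest Dlk1 TSS. C2 stood out among them in every list, at the 91.3 percentile of the optimal list, the 96.8 percentile of pool I and the 87.0 percentile of pool J. C1 (109436311 to 109436489), 1504 bp further from the gene, was at the 12.1 percentile of the conservative list, the 50.9 percentile of pool I and the 28.5 percentile of pool J. C3 (109446168 to 109446355), 6569 bp upstream of Dlk1 and the nearest site to it, was at the 26.6, 61.1 and 31.3 percentiles of the same lists. The gene Dlk1 itself held no summit in any of the 4 thresholded lists.

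From C3 no conservative summit followed for 95.9 kb. The 77.7 kb between the end of Dlk1 and the start of Meg3, where the imprinting control region lies, held 0 summits in each of the 4 thresholded lists, in the ranked list of both pools and in that of pool J. The ranked list of pooled reads held 1 there and that of pool I held 3, all below the IDR threshold.

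Meg3 (chromosome 12, 109541001 to 109571726, plus strand) had a pair of sites 876 bp apart. C4 (109542029 to 109542322) and C5 had summits 1164 and 2040 bp downstream of the nearest annotated TSS, in intron 1 of both annotated transcripts that span them. The signal value of C4 was 140 in pool I and 73.3 in pool J, and that of C5 was 237 in pool I and 146 in pool J. C5 was the stronger in every thresholded list: the percentiles of C5 and C4 were 78.8 and 66.1 in pool I, and 74.6 and 53.9 in pool J. Further along Meg3 a summit at 109550222 in pool I and 109550208 in pool J was also in the optimal list but not in the conservative one, and pool I had 5 summits in the gene in all.

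Rtl1 (109589193 to 109600330, minus strand) had no conservative summit inside the gene. Its count rests on C6, 8931 bp upstream of its start, a site that lies within Rian. The optimal, pool I and pool J lists each had 1 summit in the coding exon of Rtl1, at 109595102 in the optimal list. That summit was 72 bp from the nearest annotated miRNA gene, Mir432, one of the miRNA genes on the strand opposite to Rtl1. Its IDR between the pools was 0.0811, outside the threshold of 0.05.

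Rian (109603940 to 109661716, plus strand) held C6 (109609178 to 109609347) and C7 (109612584 to 109612959), 3511 bp apart and both in intron 2 of the transcripts that span them. They were among the weaker sites, at the 14.7 and 2.60 percentiles of the conservative list. In pool I they were at the 52.1 and 42.4 percentiles, and in pool J at the 29.2 and 17.2 percentiles. C7 lay 831 bp from Mir1188. That was the 1 miRNA gene of 67 in the region with a conservative summit within 1000 bp of its start, against 6.81% of all miRNA genes. The count depended on the list. It was 5 of 67 in the optimal list, against 7.86% of all miRNA genes, 6 in pool I, against 12.5%, and 5 in pool J, against 7.9%. Of the 23 snoRNA genes 0 had such a summit in any of the 4 lists, against 9.09% of all snoRNA genes in the conservative list, 10.4% in the optimal list, 15.2% in pool I and 10.8% in pool J. Many of these small RNA genes lie side by side in the same host genes, so they are not independent of each other.

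Mirg (109729764 to 109749460, plus strand) held no summit in any thresholded list, in the gene or 10 kb upstream. C8 (109750062 to 109750313) lay 727 bp beyond the end of the gene, after a stretch of 137.4 kb without a conservative summit. C8 was at the 44.4 percentile of the conservative list, the 69.2 percentile of pool I and the 54.0 percentile of pool J.

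Between Mirg and Dio3, an interval of 529.6 kb with lncRNA genes and no annotated protein-coding gene, there were 5 conservative sites, C8 to C12. C11 was the strongest of them, at the 74.0 percentile of pool I and the 61.5 percentile of pool J, and C8 came next. C12 (110031394 to 110031630) was at the 31.9 percentile of the conservative list. C9 (109830386 to 109830524) and C10 (109950639 to 109951014) were weak, at the 5.76 and 7.72 percentiles. By TSS the nearest protein-coding or lncRNA gene to C9, C10 and C11 was 4930511J24Rik, at 81325, 39042 and 47153 bp. C10 was the 1 conservative site of the 12 that no thresholded pool J peak overlapped, where the ranked pool J list gave a score of 240.

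Dio3 (110279068 to 110281097, plus strand) was the member farthest from a conservative summit. The nearest lay 97.7 kb beyond its start, outside the region, and the nearest on the other side was C12, 247.5 kb away. The list of pool I, however, had 2 summits in the divergent lncRNA gene Dio3os. One, at 110276227, was at the 42.3 percentile of pool I. The other, at 110278156 and the 26.9 percentile, lay 912 bp upstream of the start of Dio3. In the ranked list of both pools these had scores of 68 and 368, and pool J had no thresholded peak there.

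Of the genes outside the domain, Begain, the protein-coding gene on the Dlk1 side, had 1 conservative summit in the gene or 10 kb upstream. Wdr25 had 7 and Wars, a tryptophanyl-tRNA synthetase gene, had 4. Of the 11 lncRNA genes in the region that are not members, 1 had one, Gm34667, and Dio3os had none, against 39.4% of all lncRNA genes. The count depended on the list, being 5 of the 11 in pool I, and its difference from that share was not tested.

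At the main threshold 9 of the 12 sites held the CTCF motif, on changing strands along the domain. It was built from 1000 conservative peaks of highest signal, all on autosomes with odd numbers, and read TGGCCACCAGGGGGCGCTAG by its most frequent bases. A match, scored on both strands, had to pass a score that 1% of windows 1000 bp away from summits on those autosomes passed. Of the 12 sites, 9 had a match centred within 50 bp of the summit (75.0%; exact 95% binomial interval 42.8 to 94.5%), against 64.0% of all conservative summits. The interval takes in that share. At a stricter threshold, passed by 0.1% of flanking windows, only C4 kept a match (8.33% of the 12), against 13.7% of all conservative summits. In flanking windows on the even-numbered autosomes and X the share was 0.918% at the main threshold.

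C4 in Meg3 had the best match, TGGCCGCAAGAGGGCGCTGG, with a score higher than 88.2% of all conservative matches. C2 and C12 followed, at the 62.4 and 62.5 percentiles, and C5 was at the 52.2 percentile. The weakest match was that of C7, at the 13.2 percentile. C1, C3 and C6 had none, their best scores being 10.1, 1.71 and 5.42 bits against a threshold of 11.5. A match is a resemblance of letters. No match means only that no stretch of the reference sequence in the window passed the threshold.

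In order along the chromosome the 9 matches lay on the plus strand at C2 and C4, minus at C5, plus at C7, minus at C8, plus at C9, minus at C10 and C11, and plus at C12. Of the 8 neighbouring pairs, 3 faced each other, 3 faced apart and 2 had the same strand. The pair in Meg3 faced each other. With so few pairs these counts are a description only.

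**Figure D2:**
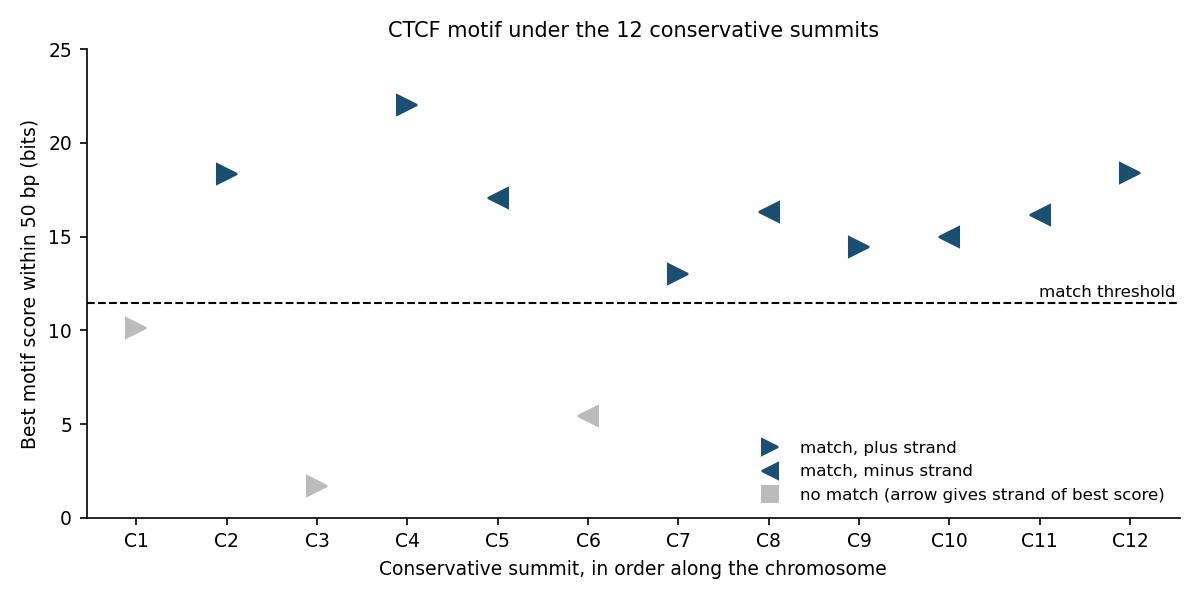
Best motif score in bits within 50 bp of each conservative summit (y axis) for C1 to C12 in order along the chromosome (x axis), where the arrowhead gives the strand, blue marks a match and grey no match, and the dashed line is the match threshold. C4 in Meg3 has the highest score, and C1, C3 and C6 lie under the line.

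The matched bases were rich in CpG at C2 ahead of Dlk1 and at C4 and C5 in Meg3. C5 had 4 CpG in its 20 matched bases, C2 had 3 and C4 had 2, as the capitals above show. C9, C10, C11 and C12 had 1 each, and C7 and C8 had 0. Over all 28575 conservative matches 9.18% had 2 or more and 59.4% had 0. At positions 5 and 6 of the motif, counted from 1 at its 5′ end, a CpG was present in C2, C4, C5 and C9, against 4.74% of all matches, and at positions 15 and 16 in 4 of the 9, against 31.3%. These positions were chosen after the matches had been seen, and DNA methylation was not measured in these files.

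The sequence around the summits was also richer in G and C than at most CTCF sites. In 301 bp centred on the summit the median GC content of the 12 sites was 59.0%, from 44.2% at C12 up to 64.5% at C2, against a median of 47.2% over all conservative summits. The median number of CpG in those windows was 7.5, against 3. The largest numbers were 17 at C2, 13 at C7, and 12 each at C4 and C5. C12 was the 1 site with more than 50% of its window in repeat-masked sequence, where 15.1% of all conservative summits had that. The peaks had a median width of 267 bp, against 309 bp.

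Signal in both pools followed the pattern of all conservative peaks. The log2 signal ratio, pool I over pool J, at the 12 sites had a median of 1.19 and ran from 0.70 at C5 up to 1.69 at C3, against a median of 1.09 with an SD of 0.39 over all 44672 peaks. C3, with signal values of 112 in pool I and 34.7 in pool J, stood at the 95.2 percentile of ratios, and C10 at the 92.0 percentile. None of the 12 lay more than 2-fold from the median ratio, where 0.47% of all conservative peaks did. The list was selected for like ranks in both pools, so a narrow range of ratios is partly built in, and the excess of pool I signal over pool J is shared by the whole list.

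**Figure D3:**
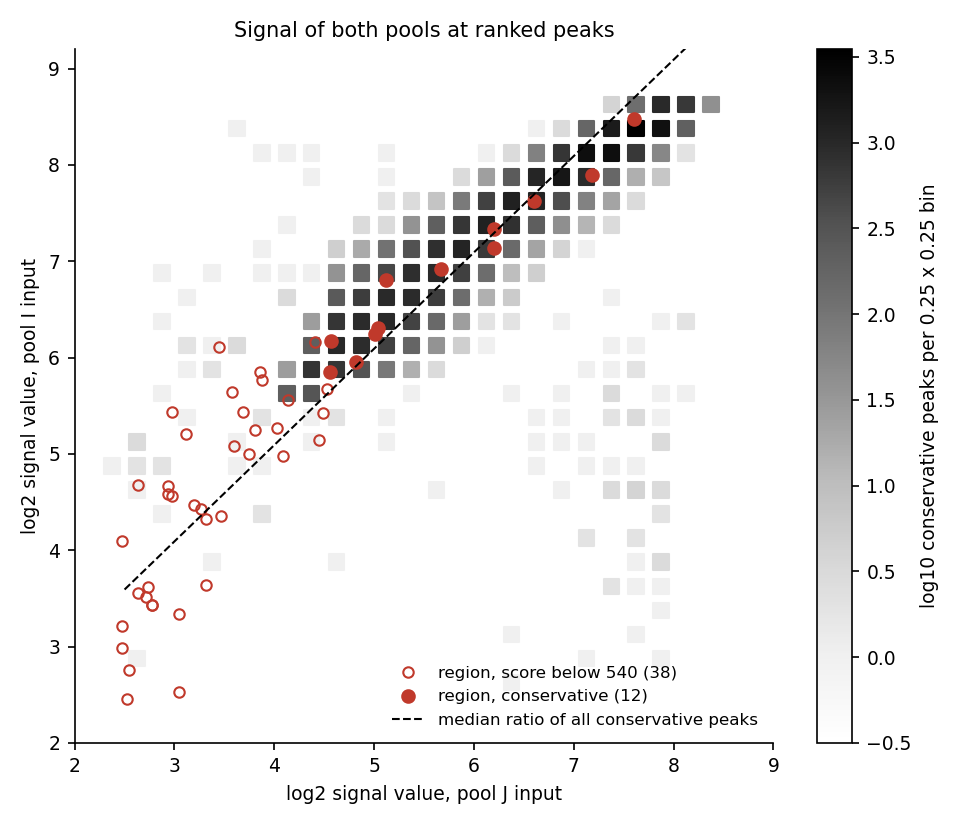
Log2 signal value in pool I (y axis) against pool J (x axis) for the 50 ranked peaks of the region in red, filled for the 12 conservative ones, over all conservative peaks binned in grey by log10 of their number, with the median ratio as the dashed line. The 12 filled points lie along the line within the grey cloud.

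The pool I list held more sites in the region than that of pool J, as it did genome-wide. Of the 32 pool I peaks of the region, 15 (46.9%; exact 95% interval 29.1 to 65.3%) overlapped a pool J peak by at least 1 bp, against 63.1% of all pool I peaks, a share inside that interval. Counting any ranked pool J peak, 78.1% had a partner, against 80.9% of all pool I peaks. Of the 16 pool J peaks 15 overlapped a pool I peak, against 97.5% of all pool J peaks. The 17 pool I peaks without a partner had a median percentile of 26.9, and the 15 with one had 52.1. A motif match was present in 8 of those 17 and in 9 of those 15, where 52.2% of all pool I peaks had one. The same split by partner was not made over all pool I peaks. The 1 pool J peak without a partner had its summit at 109953109, between C10 and C11, and was at the 14.5 percentile.

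Of the summits outside the conservative list, the 5 with the highest signal in the ranked list of pooled reads were those in Rtl1 at 109595102, at 109948942 near C10, at 109566792 in an exon of Meg3, at 110121280 and at 110276229 in Dio3os. All 5 overlapped a peak in the list of pool I. Those in Rtl1 and at 110121280 also overlapped one of pool J. Of the 5, the Meg3 and Dio3os summits had a motif match. The Meg3 exon match had a score higher than 81.1% of conservative matches. The summit at 109948942 had signal values of 68.9 in pool I and 10.9 in pool J, a log2 ratio of 2.66, higher than 99.2% of the ratios in the ranked list of both pools. Of the 50 ranked peaks of the region 7 lay more than 2-fold from the median ratio of that list, against 16.4% of all its peaks.

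The region held 12.9 conservative summits per Mb, against 17.5 per Mb of non-N sequence on chromosomes 1 to 19 and X. That is 0.741 times the genome's density (exact 95% binomial interval 0.383 to 1.29), an interval that includes 1. Among 2701 windows of the same length, 47.4% had 12 or fewer, and the median window had 13. The 1120 windows with at most 3 protein-coding genes, the number in this region, had a median of 6 summits, and 82.9% of them had 12 or fewer.

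Regions built in the same way around other imprinted genes differed in both number and signal. The H19 and Igf2 region held 15 conservative summits at 56.0 per Mb with a median percentile of 64.1. The Kcnq1 and Cdkn1c region held 18 at 28.3 per Mb with a median percentile of 71.1, and the Snrpn and Ube3a region held 24 at 7.40 per Mb with a median of 37.5. The Dlk1 and Dio3 region, with 12.9 per Mb and a median of 29.3, thus had the lowest median percentile of the 4, with a range that overlaps those of the others. It was also the lowest in the other lists, except the ranked lists of both pools and of pooled reads. There the Snrpn and Ube3a region was lower, at 44.9 against 53.7 and at 52.8 against 59.9. These differences were not tested.

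**Figure D4:**
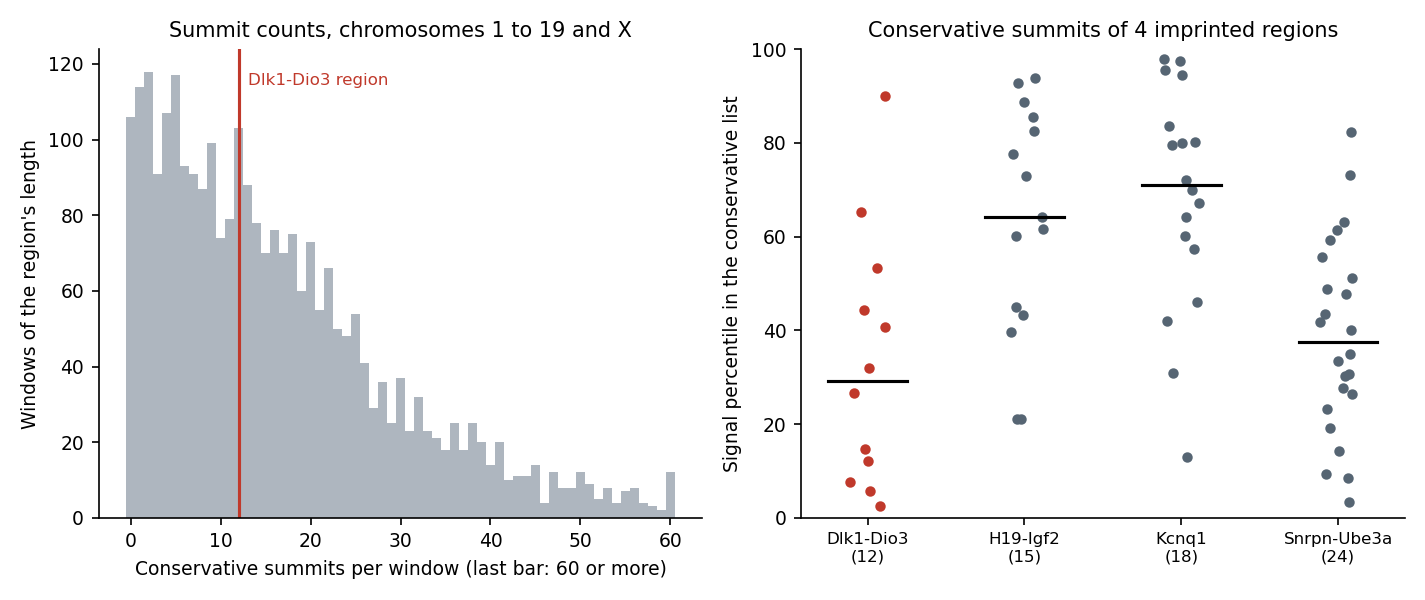
Left, the number of conservative summits in each of 2701 windows of the region's length (x axis) as a histogram of windows (y axis), with the region's 12 as the red line. Right, signal percentile in the conservative list (y axis) of every summit in 4 imprinted regions (x axis, number of summits in parentheses), with the median as a bar, where the Dlk1-Dio3 sites in red reach from 2.60 to 90.0.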

How the data were processed

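CTCF ChIP-seq fragments measured 200 to 600 bp, as the labels state. Peaks were deposited as 4 lists thresholded at an IDR of 0.05 and 4 ranked lists, all in mm10 coordinates. Which alignment each came from was read from the deposited notes. The score the authors deposited rescales the IDR (125 times the negative log2 of the IDR, with a ceiling of 1000). Ranked files deposited with them hold the same IDR in −log10 form. Signal values were deposited in a unit that the peak caller set and no source states. Not given in the sources used here are aligner, peak caller and control. In the ranked list of both pools, the first input matched a ranked pool I peak exactly in 84.5% of rows, the second a ranked pool J peak in 61.8%, and the crossed matches came to 0%.

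Summits are the peak start plus the deposited offset, given 1-based. Genes were those of GENCODE M21 basic and sequence was GRCm38.p6. The motif was grown from the most enriched 8-mer, refined on 1000 peaks, trimmed to 20 bp and tested on simulated data. Chromosome 12 was not used to learn it. Summits of different lists within 100 bp formed 1 locus. The tools were pysam 0.24.0, SciPy 1.17.1, pandas 2.3.3, numpy 2.4.6 and matplotlib 3.10.9 under Python 3.11.15. Intervals on shares are 95% Clopper-Pearson (exact) and reflect peak numbers alone.

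The members, lists and comparison regions were chosen with earlier results of these data known. Named were the 6 members, genes holding or nearest to a conservative summit, and Begain, Wdr25, Wars and Dio3os. Libraries were grouped by pool, and the alternatives tried were peak list, flank, promoter and gene window, motif threshold and overlap rule.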

Additional observations from a re-analysis of the deposited data

How the results depend on the processing

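Of 34 alternatives, 28 left the value within 1.5 times (counts) or within its 95% interval (other values), and 6 did not. The pool I list gave 32 summits in the region in place of 12, and 2 members with a promoter summit, Rian and Dio3, in place of 0. Without upstream sequence, 2 members held a summit in place of 4. With a promoter window of 5000 bp, 1 member, Meg3, had a promoter summit. The stricter motif threshold, passed by 0.1% of flanking windows, left a match at 8.33% of sites in place of 75.0%. Counting any ranked pool J peak as a partner, 78.1% of pool I peaks were shared in place of 46.9%. The density relative to the genome ran from 0.623 without flanks up to 1.07 in the pool I list, so its side of 1 depends on the list.

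No paired analysis was possible because the peak lists were made per pool from merged libraries and no test was run, which also prevented leaving out single libraries. The lists carry no counts, so what read depth limits cannot be stated.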

Other observations

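Across the 8 lists the summits of the region formed 84 loci, of which 11 were in all 8 lists and 51 were in no thresholded list. Of these 51, 5 had a motif match. Loci were not formed over the whole genome, so these counts have no share over all peaks beside them and are a description only. Some ranked summits below the threshold lay close to the starts of members, where the start is the outermost one of the gene unless a TSS is named. Dlk1 had one 937 bp downstream of its start and Meg3 one 505 bp upstream, both in the ranked list of pool I alone. From the nearest annotated Dlk1 TSS the Dlk1 summit lay 100 bp downstream. Rtl1 had one 270 bp downstream of its start in the ranked list of pooled reads alone, at the 1.44 percentile of that list. Mirg had one 1812 bp upstream, in the ranked list of both pools and at the 48.5 percentile of that of pooled reads. Inside Mirg, summits in the ranked list of pool I alone lay 334 and 930 bp upstream of the nearest annotated TSS. Inside Rian, a summit in the ranked list of both pools alone lay 286 bp downstream of one. Dio3 had one 941 bp upstream of its start in the ranked list of pool J, where pool I had a thresholded peak.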
